A study of Bos grunniens x Bos taurus and Bos grunniens with 6 samples.

Results

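The genes of the Hedgehog signalling pathway were examined in the testis of cattle-yak and yak. The members were the 8 genes DHH, PTCH1, HHIP, SMO, SUFU, GLI1, GLI2 and GLI3, found by their symbol in the deposited expression table, which held 18918 genes. Each symbol stood on 1 gene of the table, and all 8 members were among the 15042 genes with a mean FPKM (fragments per length of the gene and depth of the library) of at least 0.5 over the 6 libraries. HHIP reached that minimum only through the cattle-yak libraries, since its mean in yak was 0.404 FPKM.

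Hedgehog proteins are secreted ligands that bind the receptor PTCH1. Without a ligand PTCH1 keeps the membrane protein SMO inactive. Once SMO is released, GLI transcription factors escape the restraint of SUFU and switch on target genes, among them GLI1, PTCH1 and HHIP themselves. In the testis DHH is the ligand of Sertoli cells, and its receptor lies on Leydig and peritubular myoid cells, whose development depends on it.

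RNA-seq of testis tissue was compared between 3 male cattle-yak (libraries TES5, TES6 and TES7, breed label Gannan x Jersey) and 3 male yak (Yak8, Yak9 and Yak10, breed label Gannan). The cattle-yak were first-generation hybrids of a Jersey cattle sire and a Gannan yak dam, and animals of both groups were 4 years of age. Yak and cattle-yak came from separate counties. The labels give castration as the source of all testes, whereas the methods of the study give euthanasia for the yak, so that place and possibly the way of collection coincided with the groups and cannot be told apart from them. The fragments on genes numbered 11834987 in TES5, 11175100 in TES6 and 11600013 in TES7, against 13136129 in Yak8, 13104964 in Yak9 and 12991641 in Yak10. On a gene of 1 kb a single fragment stood for 0.0761 to 0.0895 FPKM.

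The labelled tissue was checked with markers of testicular cell types. INSL3, the peptide hormone of Leydig cells, was the most abundant Leydig marker at 11173 FPKM in cattle-yak and 3842 FPKM in yak on average, and CLU, a secreted Sertoli product, averaged 1128 and 292 FPKM. No marker of any list in the table was at 0 in all libraries of a group. The composition of the libraries nevertheless differed. The summed FPKM of 5 elongating spermatid markers was 68.8 in TES5, 26.1 in TES6 and 13.3 in TES7, but 9559 in Yak8, 8133 in Yak9 and 9917 in Yak10, with TNP1 the most abundant. The 4 round spermatid markers summed to 27.2, 12.5 and 5.89 FPKM in the same cattle-yak libraries and to 405, 367 and 430 FPKM in the yak libraries, with SPATA16 leading in cattle-yak and SPACA1 in yak. Spermatid transcripts were thus scarce in every cattle-yak library, TES7 having the least, while the yak libraries were close to each other.

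DHH, the ligand, had 16.1 FPKM in TES5, 21.0 in TES6 and 17.2 in TES7, against 2.65 in Yak8, 2.65 in Yak9 and 3.87 in Yak10. Every cattle-yak value lay above every yak value, and TES6 was the highest. In fragments this was 257, 318 and 270 in cattle-yak and 47, 47 and 68 in yak. The mean was 18.1 ± 2.61 FPKM in cattle-yak against 3.06 ± 0.705 in yak (SD, n = 3 each), a ratio of 5.92. On the log2(FPKM + 1) scale, which understates the change of genes with low values, the fold change was 2.24 (SE 0.17, limma, adjusted p = 6.0e-06), and a gene was called at an adjusted p under 0.05 with a log2 fold change beyond 1. In bulk tissue, fewer cells of a type and less RNA per cell cannot be told apart, so that the level of DHH carries both.

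PTCH1, the receptor and a target of the pathway, had 19.2 FPKM in TES5, 27.5 in TES6 and 18.8 in TES7, against 5.02, 3.90 and 4.00 in Yak8, Yak9 and Yak10. The groups did not overlap, TES6 was again the highest, and TES5 and TES7 were nearly equal. The ratio of the means was 5.07, from 21.8 ± 4.87 FPKM in cattle-yak against 4.31 ± 0.621 in yak (SD, n = 3 each), with a log2 fold change of 2.09 (SE 0.18, limma, adjusted p = 1.0e-05). It was supported by 954 to 1340 fragments in a cattle-yak library and 223 to 288 in a yak library.

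HHIP, a membrane protein that binds the ligand and withholds it from PTCH1, was the member with the lowest level. Its FPKM was 1.56 in TES5, 3.07 in TES6 and 1.46 in TES7, and 0.172 in Yak8, 0.460 in Yak9 and 0.580 in Yak10. TES6 stood far above the other cattle-yak libraries, Yak8 lay below the other yak libraries, and the groups did not overlap. The values rested on few fragments, namely 49, 91 and 45 in cattle-yak and 6, 16 and 20 in yak. The log2 fold change of HHIP was 1.08 (SE 0.23, limma, adjusted p = 2.6e-03). This call rested on single libraries, since the fold change was 0.85 without TES6 and 0.96 without Yak8, both under the threshold. Median-of-ratios scaling of the libraries gave 0.79, also under it. In contrast, a pseudocount of 0.1 gave 2.10 and voom on recovered fragments 2.36, both called. The ratio of the mean FPKM was 5.02, which the added 1 of the log scale compresses strongly at this level.

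SMO, the transducer that PTCH1 holds back, had 10.2 FPKM in TES5, 19.2 in TES6 and 11.6 in TES7, compared with 3.34, 3.14 and 2.45 in Yak8, Yak9 and Yak10. TES6 was far above the other cattle-yak libraries, and all of these were above the yak libraries. The means were 13.7 ± 4.83 FPKM (SD, n = 3) and 2.98 ± 0.465 (SD, n = 3), a ratio of 4.60, and the log2 fold change was 1.84 (SE 0.23, limma, adjusted p = 1.0e-04). It was 1.59 without TES6.

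SUFU, which retains the GLI proteins in the cytoplasm, varied less. It had 6.68 FPKM in TES5, 7.87 in TES6 and 7.41 in TES7, and 2.83, 2.31 and 3.17 in Yak8, Yak9 and Yak10. The cattle-yak libraries were close to each other and did not overlap with yak. The ratio of the means was 2.64, from 7.32 ± 0.602 FPKM in cattle-yak against 2.77 ± 0.436 in yak (SD, n = 3 each). The log2 fold change of SUFU was 1.15 (SE 0.15, limma, adjusted p = 1.4e-04), but 0.64 with median-of-ratios scaling, where it was not called.

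GLI1, an activator whose transcription is a common readout of the pathway, had 7.42 FPKM in TES5, 9.24 in TES6 and 8.46 in TES7, against 1.17, 1.06 and 0.999 in Yak8, Yak9 and Yak10. Both groups were tight, and the gap between them was wide. The means of 8.37 ± 0.911 FPKM (SD, n = 3) and 1.08 ± 0.0877 (SD, n = 3) gave a ratio of 7.77, the highest among the members, and a log2 fold change of 2.17 (SE 0.14, limma, adjusted p = 3.0e-06). In fragments GLI1 had 291, 342 and 325 in cattle-yak and 51, 46 and 43 in yak.

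GLI2, the main activator in response to a ligand, had 2.92 FPKM in TES5, 3.62 in TES6 and 3.43 in TES7, and 1.46, 1.50 and 1.63 in Yak8, Yak9 and Yak10. The groups did not overlap, although the distance was shorter than for GLI1. The log2 fold change of GLI2 was 0.77 (SE 0.14, limma, adjusted p = 1.2e-03) and did not reach the threshold of 1. It passed with a pseudocount of 0.1 (1.07) and with voom on recovered fragments (1.11), while median-of-ratios scaling gave 0.34. The ratio of the means was 2.18.

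GLI3, which is processed to a repressor when no ligand is present, had 2.73 FPKM in TES5, 4.08 in TES6 and 2.88 in TES7, and 2.79, 2.51 and 2.35 in Yak8, Yak9 and Yak10. Here the groups overlapped, since Yak8 was above TES5, and only TES6 stood apart. The log2 fold change of GLI3 was 0.24 with a 95% interval from -0.15 to 0.63 (limma, adjusted p = 0.216), and its direction turned to -0.22 with median-of-ratios scaling. It was 0.10 without TES6. Means were 3.23 ± 0.740 FPKM in cattle-yak against 2.55 ± 0.226 in yak (SD, n = 3 each).

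**Figure D1:**
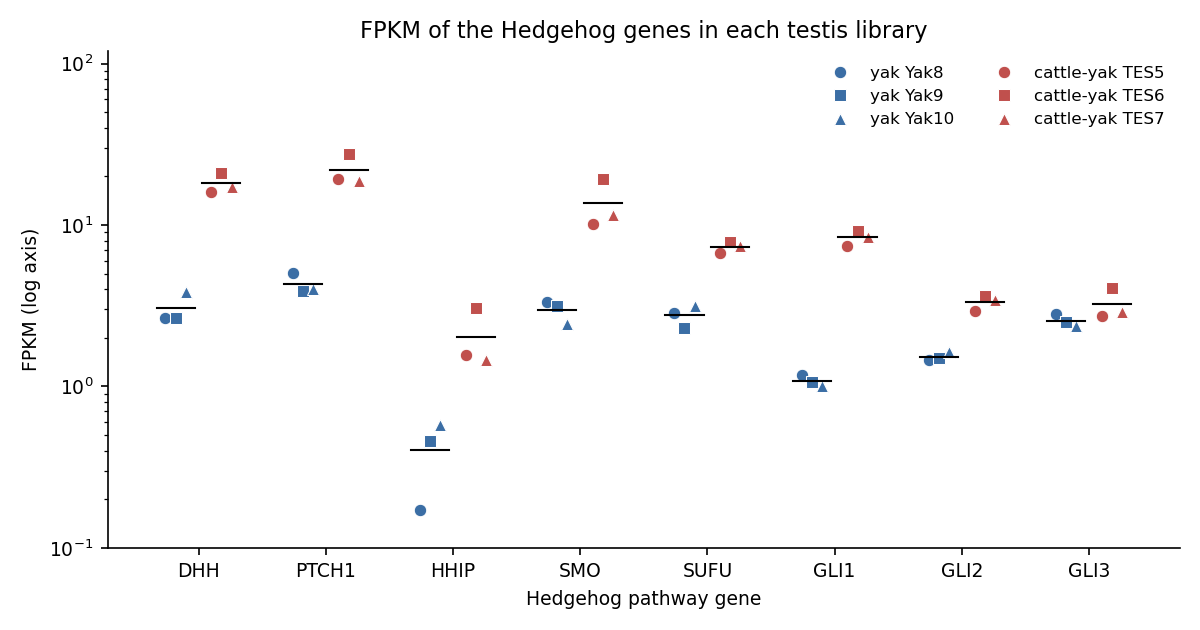
FPKM (log axis) of the 8 Hedgehog genes in each library, with yak in blue, cattle-yak in red, 1 symbol per animal and a black line at the mean of each group of 3. The groups are apart for 7 genes and overlap for GLI3, and TES6 (red square) is the highest library for each gene.

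Of the 8 members, 6 were called higher in cattle-yak (75.0%) and 0 lower (limma, and 0 also at an unadjusted p under 0.05 and with voom), beside 33.4% of all tested genes called higher and 20.8% called lower. The members called were DHH, PTCH1, HHIP, SMO, SUFU and GLI1. HHIP, which passed the minimum of 0.5 FPKM through cattle-yak alone, had to differ, and the count was 5 without TES6 and 5 without Yak8, since HHIP was then at 0.85 and 0.96. All 3 cattle-yak values were above all 3 yak values for 7 of the 8 members, as for 53.9% of all tested genes. The median log2 fold change of the members was 1.49 and that of all tested genes 0.51. Median-of-ratios scaling shifted the median of all tested genes from 0.51 to 0.01 and that of the members to 1.05. With this scaling 4 members (DHH, PTCH1, SMO and GLI1) were called higher and 0 lower, beside 17.7% and 27.7% of all tested genes. In the ranking of all tested genes by log2 fold change, DHH stood at percentile 95.7, GLI1 at 94.9, PTCH1 at 93.8 and SMO at 89.6. SUFU and HHIP followed at 71.3 and 69.3, GLI2 stood at 58.7 and GLI3 at 42.9. The ligand, receptor, transducer and GLI1 therefore lay in the upper part of the distribution, and GLI2 and GLI3 near its middle. The order of the members held for the pseudocount of 1. With a pseudocount of 0.1 HHIP (2.10) was near SMO (2.12) and above SUFU (1.38), and GLI1 (2.84) was above DHH (2.54).

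The order of the levels, compared per gene length, differed between the groups. In cattle-yak PTCH1 had the highest mean FPKM, followed by DHH, SMO, GLI1, SUFU, GLI2, GLI3 and HHIP. In yak PTCH1 was followed by DHH, SMO, SUFU, GLI3, GLI2, GLI1 and HHIP. GLI1 thus held rank 4 in cattle-yak and rank 7 in yak, and GLI3 rank 7 and rank 5. Most neighbours in this order did not differ beyond their spread (mean ± SD). In cattle-yak the ranges of neighbours were apart between SUFU and GLI2 alone. In yak they were apart between GLI3 and GLI2, GLI2 and GLI1, and GLI1 and HHIP, while those from PTCH1 down to GLI3 ran into each other.

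The make-up of the GLI factors was set side by side within each library, which does not depend on how the libraries are scaled. GLI1 made up 56.8% of the summed FPKM of GLI1, GLI2 and GLI3 in TES5, 54.5% in TES6 and 57.3% in TES7, against 21.6%, 20.9% and 20.1% in Yak8, Yak9 and Yak10. The share of GLI3 was 20.9%, 24.1% and 19.5% in the cattle-yak libraries and 51.5%, 49.6% and 47.1% in the yak libraries. GLI1 was thus the leading GLI transcript in every cattle-yak library, and GLI3 in every yak library. The difference in the share of GLI1 was 35.3 percentage points (exact permutation test, two-sided, p = 0.1, the smallest that 3 libraries against 3 can give). For GLI2 the share was 21.4% to 23.2% in the cattle-yak libraries, below the 26.9% to 32.8% of the yak libraries. The summed FPKM of the GLI genes was 13.1, 16.9 and 14.8 in TES5, TES6 and TES7, and 5.42, 5.07 and 4.98 in Yak8, Yak9 and Yak10.

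**Figure D2:**
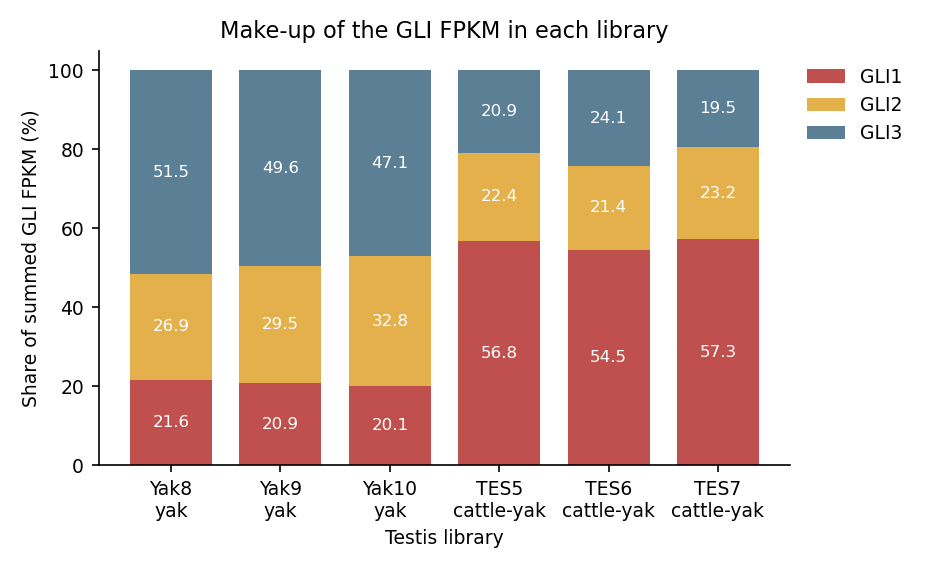
Share (%) of GLI1, GLI2 and GLI3 in their summed FPKM in each library, with 3 yak libraries on the left and 3 cattle-yak libraries on the right. GLI1 takes 20.1% to 21.6% in yak but 54.5% to 57.3% in cattle-yak.

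Ratios between members within a library were computed for 8 pairs, and no adjusted p fell below 0.200. GLI1 over GLI3 was 2.72, 2.26 and 2.94 in TES5, TES6 and TES7, and 0.420, 0.421 and 0.426 in Yak8, Yak9 and Yak10. This ratio was nearly constant in yak, and each cattle-yak library exceeded it several fold (exact permutation test, two-sided, p = 0.1, adjusted p = 0.200). Against the ligand, GLI1 differed less. The ratio of GLI1 to DHH was 0.462, 0.439 and 0.491 in cattle-yak and 0.443, 0.400 and 0.258 in yak, so that the groups overlapped (exact permutation test, two-sided, p = 0.2, adjusted p = 0.320). PTCH1 over DHH also overlapped, with 1.20 ± 0.105 in cattle-yak against 1.47 ± 0.432 in yak (SD, n = 3 each) (exact permutation test, two-sided, p = 0.5). SMO over PTCH1 was 0.616 ± 0.0837 (SD, n = 3) and 0.695 ± 0.0988 (SD, n = 3), again within the spread. HHIP over PTCH1 was 0.0810, 0.112 and 0.0775 in cattle-yak and 0.0342, 0.118 and 0.145 in yak, with the widest spread in yak. Groups did not overlap for GLI1 over PTCH1 (0.390 and 0.252 on average), SMO over SUFU (1.85 and 1.11) and GLI2 over GLI3 (1.05 and 0.605), each higher in cattle-yak with an exact permutation p of 0.1. The pairs were chosen after the data were seen.

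The markers of Sertoli, Leydig and myoid cells moved in the same direction as the called members. Of the 12 Sertoli markers listed, 11 were in the table. All 11 were called higher in cattle-yak (33.4% of all tested genes were), and their median log2 fold change was 2.46. Their summed FPKM was 2710 in TES5, 2781 in TES6 and 2880 in TES7, against 630, 550 and 588 in Yak8, Yak9 and Yak10, and CLU was the most abundant. The 6 Leydig markers in the table (of 9) were all called higher, and summed to 12423, 11846 and 10434 FPKM in cattle-yak and 4864, 3340 and 3526 in yak, nearly all of it INSL3. Of the 7 myoid markers 6 were called higher, with sums of 603, 804 and 615 FPKM in cattle-yak and 161, 129 and 135 in yak, ACTA2 leading. The groups did not overlap for any of these lists, and the highest library was TES7 for Sertoli, TES5 for Leydig and TES6 for myoid markers.

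Of the 8 stromal progenitor markers 7 were called higher (DCN the most abundant), and the sum was 195, 258 and 210 FPKM in TES5, TES6 and TES7 and 40.9, 45.4 and 38.4 in the yak libraries. Spermatogonia markers, 6 of 7 called higher with DMRT1 leading, summed to 710, 813 and 909 FPKM and to 169, 188 and 236 FPKM. Endothelial markers, 3 of 7 higher and 1 lower with CLDN5 leading in cattle-yak and VWF in yak, had 64.0, 68.1 and 46.6 FPKM and 41.0, 35.2 and 41.0 FPKM. The groups were far apart for the stromal and spermatogonia lists and close for the endothelial list. Macrophage markers, 3 of 6 higher and 2 lower with C1QA leading in cattle-yak and AIF1 in yak, summed to 71.9, 94.7 and 90.7 FPKM and to 115, 116 and 97.6 FPKM. Spermatocyte markers, 1 of 7 higher and 2 lower with SYCP3 leading in cattle-yak and PIWIL1 in yak, summed to 288, 173 and 272 FPKM and to 383, 383 and 369 FPKM, TES6 having the least. All 4 round spermatid and all 5 elongating spermatid markers in the table were called lower. Of all tested genes 33.4% were called higher and 20.8% lower. Median-of-ratios scaling called 17.7% of all tested genes higher and 27.7% lower. With it 9 Sertoli and 5 Leydig markers were still called higher. The endothelial list then had 0 markers higher and 1 lower, the macrophage list 1 higher and 2 lower, and the spermatocyte list 0 higher and 2 lower. The part of these cell types in the result for the Hedgehog genes was not tested.

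**Figure D3:**
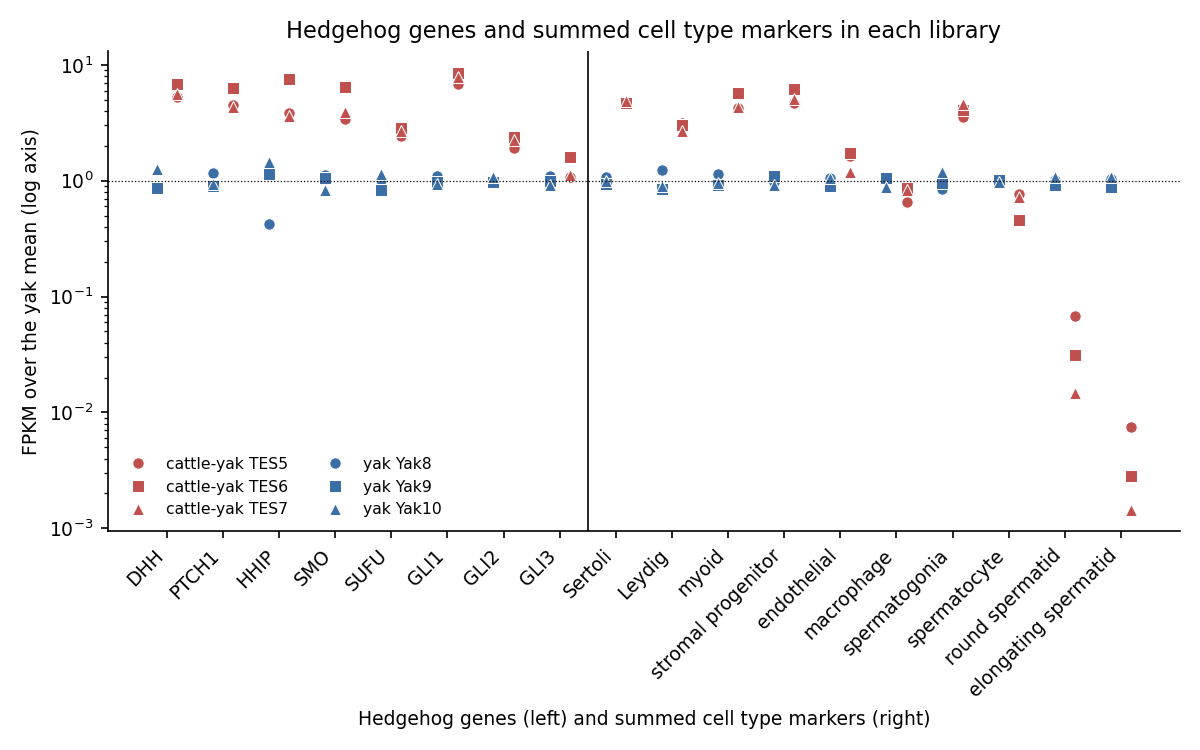
FPKM of each Hedgehog gene (left) and summed FPKM of each marker list (right), divided by the mean of the 3 yak libraries (log axis), with 1 symbol per library. DHH in cattle-yak lies at 5.25 to 6.89 times the yak mean and the Sertoli markers at 4.60 to 4.89 times, while the spermatid markers lie far below the yak mean.

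Next, each member was taken relative to the markers of the cells that make or receive the ligand, as its log2(FPKM + 1) minus the mean log2(FPKM + 1) of the markers in the same library. DHH relative to the 11 Sertoli markers was -2.61 in TES5, -2.39 in TES6 and -2.54 in TES7, and -2.76, -2.50 and -2.22 in Yak8, Yak9 and Yak10. The groups overlapped, and the difference of the group means was -0.02 (95% interval of limma from -0.41 to 0.36). With a pseudocount of 0.1 that difference was 0.18, also with overlap. Relative to the same markers PTCH1 differed by -0.17 (-0.52 to 0.18), GLI1 by -0.09 (-0.43 to 0.24) and SMO by -0.42 (-0.89 to 0.05). These values moved with single libraries, PTCH1 to -0.30 without TES6 and -0.10 without TES7, GLI1 to -0.05 without TES5 and -0.03 without Yak9, and SMO to -0.63 without TES6 and -0.28 without TES5, while DHH ranged from -0.16 without Yak8 to 0.11 without Yak10. For GLI1 the direction depended on the pseudocount, since 0.1 gave 0.49 with every cattle-yak library above every yak library, while PTCH1 (-0.05) and SMO (-0.24) still overlapped.

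SUFU, GLI2, GLI3 and HHIP were lower in cattle-yak once related to Sertoli markers. The differences were -1.12 for SUFU, -1.49 for GLI2, -2.02 for GLI3 and -1.18 for HHIP, and limma called these 4 members lower and 0 higher. Of all tested genes 74.8% were called lower and 0.186% higher after the same centring, so most genes did likewise. With a pseudocount of 0.1 the groups remained apart for SUFU (-0.98, just short of the threshold), GLI2 (-1.29) and GLI3 (-2.05), whereas HHIP was at -0.26 with overlapping groups.

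Centring on the 6 Leydig markers gave the same 4 members as lower and 0 as higher, beside 71.4% and 0.253% of all tested genes. After this centring the differences were 0.09 for DHH, -0.06 for PTCH1, 0.02 for GLI1 and -0.31 for SMO, with limma intervals that all spanned 0. SMO was at -0.14 without TES5, -0.51 without TES6 and -0.20 without Yak9, and the values of DHH, PTCH1 and GLI1 each changed sign without 1 library or another. With a pseudocount of 0.1, GLI1 was at 0.61 with no overlap between the groups, and DHH (0.31), PTCH1 (0.07) and SMO (-0.11) overlapped. SUFU, at the threshold with -1.0, was at -0.86 with that pseudocount, -0.95 without TES5 and -0.79 without Yak10. HHIP, at -1.07, was at -0.13 with that pseudocount, and at -0.97 without TES5, -0.99 without TES7, -0.96 without Yak9 and -0.84 without Yak10. GLI2 (-1.38) and GLI3 (-1.91) were also beyond the threshold with that pseudocount (-1.17 and -1.92). Centring on the 7 myoid markers left GLI2 (-1.14) and GLI3 (-1.67) called lower and 0 members higher, beside 63.5% and 0.558% of all tested genes. There DHH differed by 0.33 (-0.13 to 0.79), PTCH1 by 0.18 (-0.22 to 0.58), GLI1 by 0.26 (-0.15 to 0.68) and SMO by -0.07 (-0.51 to 0.38). The value of DHH was 0.16 without Yak8 and 0.52 without Yak10, that of PTCH1 0.11 without TES6, and that of SMO lay between -0.22 without TES6 and 0.02 without TES5. For PTCH1 and GLI1 every cattle-yak library was nevertheless above every yak library. With a pseudocount of 0.1 the groups were also apart for DHH (0.54), PTCH1 (0.31) and GLI1 (0.85), GLI2 fell short of the threshold (-0.93), and HHIP moved from -0.83 to 0.11. Over the 24 combinations of member and list, exact permutation tests (two-sided) gave adjusted p-values of at least 0.171, since no single test can go below 0.1.

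**Figure D4:**
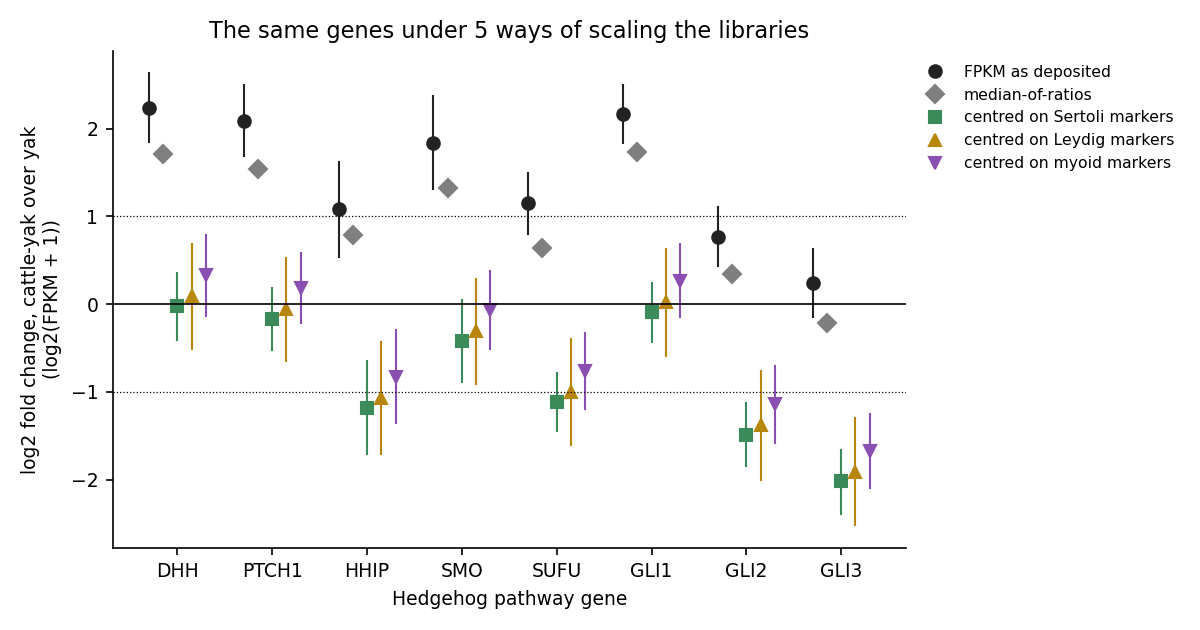
Log2 fold change of cattle-yak over yak on the log2(FPKM + 1) scale for each member with FPKM as deposited, after median-of-ratios scaling, and after centring each library on Sertoli, Leydig or myoid markers. Bars are 95% intervals of limma (not drawn for median-of-ratios) and dotted lines mark 1 and -1. After centring with the pseudocount of 1 drawn here, the intervals of DHH, PTCH1, SMO and GLI1 span 0. DHH lies from -0.02 to 0.33, PTCH1 from -0.17 to 0.18, SMO from -0.42 to -0.07 and GLI1 from -0.09 to 0.26. With a pseudocount of 0.1 DHH lies from 0.18 to 0.54 and GLI1 from 0.49 to 0.85. GLI3 changes from 0.24 to between -2.02 and -1.67.

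The other genes of the pathway were taken from a list of 58, of which 52 were in the table and 49 were tested. Of these, 13 were called higher and 9 lower in cattle-yak (26.5% and 18.4%), with a median log2 fold change of 0.43, close to that of all tested genes. With median-of-ratios scaling 7 were higher and 12 lower. These shares were near those of all tested genes, so that they say nothing particular about the pathway.

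Among the other ligands, SHH had 14, 26 and 11 fragments in TES5, TES6 and TES7, and 1, 1 and 0 in Yak8, Yak9 and Yak10. IHH had 0, 1 and 2 fragments in cattle-yak and 13, 10 and 6 in yak. SHH was thus higher in the cattle-yak libraries and IHH in the yak libraries, both were scarcer than DHH in every library, and both lay under the minimum for testing. SHH was at most 1.10 FPKM and IHH at most 0.476 FPKM in any library. Of the 6 tested genes for acylation and release of the ligand, 3 lay above and 3 below yak in every library. Of the 15042 tested genes 8105 lay above and 4540 below in this way. By limma 0 were called higher and 1 lower (16.7%), beside 33.4% and 20.8% of all tested genes. The gene called lower was HHAT, the acyltransferase that attaches palmitate to the ligand. It had 1.50, 1.42 and 1.03 FPKM in cattle-yak and 9.53, 9.92 and 6.96 in yak (log2 fold change -2.07, SE 0.18, limma, adjusted p = 1.1e-05). HHAT was thus lower in every cattle-yak library, the reverse of DHH. Which cells of the tissue the HHAT transcripts came from was not tested.

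Of the 6 receptors and co-receptors tested, 4 were called higher (66.7%) and 1 lower (16.7%), beside 33.4% and 20.8% of all tested genes. With median-of-ratios scaling 2 were higher and 1 lower, beside 17.7% and 27.7% of all tested genes. The co-receptors GAS1 (1.59) and CDON (1.29), which help the ligand to bind, and the glypican GPC3 (1.36), which competes with PTCH1 for the ligand, were among those higher on the log2 scale. With that scaling the calls of CDON (0.85) and GPC3 (0.94) were lost, whereas GAS1 kept its call (1.15). LRP2, a large endocytic receptor, was the 1 called lower (-1.59), but its symbol stood on 2 genes that moved in opposite directions, so it is uncertain. The gene counted, taken for its higher mean FPKM, was 2567 bases long. The other, of 14036 bases, was called higher (1.52), also with median-of-ratios scaling (1.29). It had 214, 354 and 469 fragments in TES5, TES6 and TES7, and 16, 12 and 11 in Yak8, Yak9 and Yak10.

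Regulators of SMO were mixed, with 2 of 10 called higher and 3 lower (30.0%), beside 33.4% and 20.8% of all tested genes. Median-of-ratios scaling left 0 higher and 3 lower, beside 17.7% and 27.7% of all tested genes. GRK3, a kinase of the family that phosphorylates SMO, had the lowest log2 fold change of the 10 regulators (-2.78). It was followed by IQCE, a part of the ciliary complex with EVC and EVC2 (-2.22), and SMURF1, a ubiquitin ligase (-1.84). The symbol SMURF1 stood on 2 genes, and the other had at most 2 fragments in any library. MGRN1, a ubiquitin ligase that acts on SMO, was higher (1.38), as was ARRB1 (1.34), an arrestin. Both calls were lost with that scaling, MGRN1 being at 0.78 and ARRB1 at 0.99, just under the threshold.

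Kinases and cilium factors that restrain GLI held the lowest and the highest log2 fold change of the pathway. Of the 10 tested, 3 were called higher (30.0%) and 1 lower (10.0%), beside 33.4% and 20.8% of all tested genes. With median-of-ratios scaling this became 3 higher and 3 lower, beside 17.7% and 27.7% of all tested genes. GPR161, a ciliary receptor that raises cAMP and keeps the pathway off, had 2.73, 2.40 and 2.79 FPKM in cattle-yak and 26.0, 22.3 and 26.4 in yak (log2 fold change -2.83, SE 0.13, limma, adjusted p = 5.0e-07). PRKACB, a catalytic subunit of protein kinase A, had 48.4, 51.2 and 53.8 FPKM in cattle-yak and 8.87, 6.94 and 7.91 in yak (2.55, SE 0.12, limma, adjusted p = 5.5e-07). Both genes were tight within each group and moved in opposite directions, and the paralog PRKACA was not called (0.43). ANKMY2 (2.39) and CSNK1E (1.64), a casein kinase, were also higher.

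Among the 9 genes for GLI scaffolding and degradation 1 was called higher (11.1%) and 3 lower (33.3%), beside 33.4% and 20.8% of all tested genes. With median-of-ratios scaling 0 were higher and 4 lower, beside 17.7% and 27.7% of all tested genes. SPOP, an adaptor for GLI degradation, was higher (1.26) with FPKM as deposited but was not called with that scaling (0.68). Its ligase partner CUL3 (-1.60) was lower, as were the kinase STK36 (-1.53) and CUL1 (-1.32). The symbol CUL1 stood on 2 genes, and the other had at most 1 fragment in any library. Of the 8 tested genes reported as targets of the pathway, 3 were called higher (37.5%), near the 33.4% of all tested genes. With median-of-ratios scaling 2 were higher, beside 17.7% of all tested genes. MYCN had 22.5, 23.0 and 17.1 FPKM in cattle-yak and 3.93, 2.52 and 2.24 in yak (log2 fold change 2.50, SE 0.20, limma, adjusted p = 7.2e-06). BCL2 (2.09) and JAG1 (1.09) were the others, and the call of JAG1 was lost with that scaling (0.62). The groups overlapped for the cyclins CCND1 and CCND2 and for FOXF1. BMP4 was below yak in every cattle-yak library (2.78, 2.94 and 1.57 FPKM against 3.24, 3.90 and 3.0) but was not called. SNAI1 was above yak in every cattle-yak library (2.83, 2.27 and 1.64 FPKM against 1.31, 1.31 and 1.39), also without a call (0.46).

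In the annotation deposited with the values, the KEGG term for Hedgehog signalling stood on 51 genes, 7 of them members (all but GLI3). Of the 47 tested, 20 were called higher and 9 lower. Without the members, 14 of 40 were higher (35.0%) and 9 lower (22.5%), near the 33.4% and 20.8% of all tested genes, with a median log2 fold change of 0.46. Median-of-ratios scaling turned this to 7 higher and 12 lower. Of the 44 genes of the term that are not members, 31 were also in the list of other pathway genes, so the counts overlap. The GO term for smoothened signalling stood on 56 genes and on 6 members, with SUFU and GLI1 lacking it.

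The genes most like DHH over the 6 libraries were found by the root mean square difference of log2(FPKM + 1) after centring each gene on its mean. LRIG3 was the closest (0.0420), with 17.9, 23.2 and 18.9 FPKM in cattle-yak and 3.0, 2.72 and 4.35 in yak. SOX12 (0.0721), RASL10B (0.0729) and EMID1 (0.0753) were also among the 5 closest. Like DHH, LRIG3 was highest in TES6 and, among the yak libraries, in Yak10. For GLI1 the closest were UGCG (0.0223), VIM (0.0417), MYO10 (0.0448), ZNF189 (0.0455) and GNAS (0.0478). UGCG had 14.6, 17.8 and 16.1 FPKM in cattle-yak and 2.83, 2.77 and 2.61 in yak, the same order of libraries as GLI1. LRIG3 and UGCG were picked by likeness over these same 6 libraries, so that a shared order is no separate result. Within the pathway, GLI1 was the member most like DHH, at rank 334 of all tested genes (0.177), ahead of PTCH1 at rank 684, while GLI3 was at rank 8284. PTCH1 was the member most like GLI1, at rank 284 (0.140).

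TES6 was the highest of the 3 cattle-yak libraries for all 8 members. Among all tested genes it was the highest for 37.8%, and among the genes called higher for 47.9%. The distance was widest for HHIP, SMO and PTCH1, which in TES6 were at 7.59, 6.45 and 6.38 times the yak mean, compared with 3.86, 3.44 and 4.47 times in TES5 and 3.62, 3.91 and 4.37 times in TES7. For SUFU and GLI2 the cattle-yak libraries lay closer together, at 2.41 to 2.84 and 1.91 to 2.37 times the yak mean. Among the cattle-yak libraries TES6 also had the highest summed FPKM of myoid, stromal progenitor, endothelial and macrophage markers and the lowest of spermatocyte markers, and the part of these in the result was not tested.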

How the data were processed

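Testis RNA of 3 cattle-yak and 3 yak was sequenced, with 1 library per animal and a kit that keeps the strand. The authors mapped the reads of both groups to the yak genome with HISAT2 and deposited FPKM values per gene, without scaling between libraries. The study's methods name Cufflinks for the FPKM, yet the values are whole fragments over length and depth, which an estimate need not be, so the tool is uncertain. Whether counting used strand is not given in the sources used here, so antisense overlap cannot be told apart, nor can lower mapping of cattle alleles to the yak genome. For the 17973 genes with at least 2 values above 0, ratios between libraries gave back fragments within 0.03 of a whole number. The study's own test took counts, whereas here FPKM was tested on the log2(FPKM + 1) scale, for which limma 3.58.1 under R 4.3.3 was used (lmFit, eBayes with trend, two-sided). The 15042 genes whose FPKM averaged 0.5 or more entered, with Benjamini-Hochberg adjustment over all of them, and called genes passed an adjusted p of 0.05 and a log2 fold change of 1 in either direction. Both the fit and the recovery were tested on simulated data. Exact permutation tests ran over the libraries and cannot go below 0.1. Python 3.11.15, numpy 2.4.6, pandas 2.3.3, scipy 1.17.1 and matplotlib 3.10.9 were used.

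The members, the pathway list and the marker lists were chosen with earlier results of these data known. Named were all 8 members, the called genes of the pathway list (up to 4 per role by size), SHH and IHH, the 5 genes most like DHH and GLI1, and the most abundant marker of each list. CDON, ARRB1, PRKACA, CCND1, CCND2, FOXF1, BMP4, SNAI1 and the leading marker of each group were added after their values were seen. The results of some genes that this rule takes are not reported here. As alternatives, pseudocounts, filters, median-of-ratios scaling, centring on marker lists, limma without a trend, voom in limma on the recovered fragments, the adjusted p alone and the omission of each library were tried. A search for GLI motifs in promoters was not run, since sequences were not used here.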

Additional observations from a re-analysis of the deposited data

How the results depend on the processing

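Of 466 values under alternatives, 385 kept the direction and the outcome of their own test or, for counts, stayed within 1.5 times the main count; relative values and ratios, whose exact test cannot pass, were judged by sign alone. DHH, PTCH1, SMO and GLI1 remained called with a pseudocount of 0.1, median-of-ratios scaling, no trend, voom and the omission of any library, and GLI1, HHIP, GLI2 and GLI3 lay under a minimum of 5 FPKM and gave no value there. Median-of-ratios scaling gave 0.79 for HHIP, 0.64 for SUFU and -0.22 for GLI3, and reduced the genes called higher to 7 in the pathway list, 11 in the KEGG term and 2655 of all tested genes. GLI2 passed with a pseudocount of 0.1 (1.07) and with voom (1.11). HHIP ranged from 0.85 to 1.21 when 1 library was left out, and was at 2.10 with a pseudocount of 0.1 and 2.36 with voom. A minimum of 5 FPKM left 6 genes of the pathway list and 12 of the KEGG term higher, fewer genes being tested. The adjusted p alone gave 24 higher and 16 lower in the pathway list, 14 lower in the KEGG term and 7916 higher of all tested genes. Centring subtracts markers that were themselves higher in cattle-yak, which lowers every fold change by construction. On Sertoli, Leydig and myoid markers in turn, members called higher were 0, 0 and 0 and lower 4, 4 and 2, the pathway list gave 0, 0 and 0 higher and 38, 37 and 34 lower, the KEGG term 0, 0 and 0 higher and 32, 31 and 26 lower, and all tested genes 28, 38 and 84 higher and 11248, 10744 and 9545 lower. In the same order the log2 fold changes were -0.02, 0.09 and 0.33 for DHH, -0.17, -0.06 and 0.18 for PTCH1, -1.18, -1.07 and -0.83 for HHIP, -0.42, -0.31 and -0.07 for SMO, -1.12, -1.0 and -0.76 for SUFU, -0.09, 0.02 and 0.26 for GLI1, -1.49, -1.38 and -1.14 for GLI2, and -2.02, -1.91 and -1.67 for GLI3. The sign of some relative values turned. With a pseudocount of 0.1 this held for DHH (0.18) and GLI1 (0.49) relative to Sertoli markers, PTCH1 relative to Leydig markers (0.07), and SMO (0.12) relative to myoid markers, all near 0 before, and for HHIP relative to myoid markers, which moved from -0.83 to 0.11. Leaving out 1 library, DHH ranged from -0.16 to 0.11 relative to Sertoli and from -0.20 to 0.36 relative to Leydig markers, PTCH1 from -0.18 to 0.04 and GLI1 from -0.16 to 0.13 relative to Leydig markers, and SMO from -0.22 to 0.02 relative to myoid markers. The log2 ratio of HHIP to PTCH1 ranged from -0.56 (without Yak8) to 0.48 between groups, and the ratios were chosen after seeing the data. Other than the centring and the minimum of 5 FPKM, the cause of these changes was not tested. No paired analysis was run, because nothing in the labels ties a cattle-yak animal to a yak animal. Among the members depth limits HHIP most, with 6 fragments in Yak8.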
